A study of Mus musculus with 3186 samples.

Results

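The xenobiotic metabolism enzymes described here are the cytochrome P450 (Cyp), glutathione S-transferase (Gst), UDP-glycosyltransferase (Ugt), flavin-containing monooxygenase (Fmo), epoxide hydrolase (Ephx), sulfotransferase (Sult) and carboxylesterase (Ces) genes of the deposited matrix, chosen by symbol alone and without Cyp26b1. They numbered 156 of 19937 genes: 81 Cyp, 21 Gst, 16 Ces, 14 Ugt, 13 Sult, 7 Fmo and 4 Ephx genes. Single cells of the brain of C57BL/6 mice aged 12 to 15 weeks were put by flow sorting, 1 to a well, on 384-well plates and profiled by Smart-seq2, which copies and sequences messenger RNA along its whole length. Of the 3 reporter lines, Cldn5(BAC)eGFP mice, whose transgene labels endothelial cells, gave 1445 cells. Pdgfra-H2BGFP mice, whose reporter labels a perivascular population and the oligodendrocyte lineage, gave 257 cells. A further 1484 cells were positive for both Pdgfrb(BAC)eGFP and NG2dsRed, a combination that marks mural cells. No line was treated, all mice shared the strain and age range, and every cell had passed a reporter gate. Each cell gave 99905 to 1606954 gene reads, with a median of 350339.

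Xenobiotic metabolism is usually divided by the chemistry of its steps. Phase I enzymes (Cyp, Fmo, Ephx and Ces) oxidise or hydrolyse a foreign or endogenous lipophilic compound, and phase II enzymes (Gst, Ugt and Sult) attach glutathione, a sugar or sulfate, which makes the product easier to export. The liver holds the bulk of this system, but the wall of brain vessels stands between blood and neural tissue and also meets circulating compounds. Many members of the same families act on the body's own lipids: sterols, bile acid precursors, arachidonic acid epoxides and the galactolipids of myelin.

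Cells were grouped by clustering in which no enzyme of the set took part, and the groups were named from cell type markers. Those markers, other than reporter genes, were also among the genes offered to the clustering. Their sums therefore describe the groups and are no separate check of them. The classes held 356 arterial-like, 340 venous-like and 640 capillary-like endothelial cells, 88 fibroblast-like cells, 170 smooth muscle-like cells, 1055 pericyte-like cells and 150 oligodendrocyte-like cells. A further 113 mural cells met no marker rule, were led by Gabrr1 and Adamts16, and held the contractile gene Acta2 at 4579 CPM, against 30748 CPM in smooth muscle-like cells. They are called the intermediate mural cells here, and the other 274 cells were left outside the 8 groups. CPM is a gene's reads per 1000000 reads of all genes, with the reads summed over the cells of a group. Summed over 8 endothelial markers the level was 39848 to 50099 CPM in the endothelial classes, against 1502 CPM in pericyte-like cells and 145 CPM in fibroblast-like cells. The 8 pericyte markers summed to 3418 CPM in smooth muscle-like, 35053 CPM in intermediate mural and 64593 CPM in pericyte-like cells, and the 8 smooth muscle markers to 62908, 13375 and 4583 CPM in the same order. Of fibroblast-like cells, 24 of 88 also carried markers of another class, and pericyte markers summed to 5089 CPM over the whole class. The oligodendrocyte markers summed to 691 CPM in fibroblast-like cells against 119033 CPM in oligodendrocyte-like cells.

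The labels name no animals, so each reporter line counted as 1 sample, no test was run and no p-value is given. Plates (EC3 to EC6, Mural3 to Mural6, Pdgfra1 and Pdgfra2) show how far a value moved within a line, and plate values are given in that order. The 95% intervals are exact Poisson intervals for the reads and cover counting error only, since reads without molecular tags are not independent molecules. The endothelial classes shared plates with each other, as did the mural classes, and fibroblast-like with oligodendrocyte-like cells. In comparisons across reporter lines, class, line and plate cannot be told apart. An enzyme is counted as higher or lower when its CPM differed at least 2-fold, with at least 5 CPM in the higher class. Log2 ratios are given with 1 CPM added to each level, so a low gene can pass the 2-fold rule with a log2 ratio just under 1 in size. A pooled level depends both on how many cells had reads and on how many reads each had, so shares of cells with a read are given for the main genes. Plate Pdgfra1 gave most of the reads of fibroblast-like cells. Their pooled levels, and the counts made from them, therefore rest mainly on that plate. Cyp1b1, for example, stood at 481 CPM pooled, against 512 and 234 CPM on plates Pdgfra1 and Pdgfra2.

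Reads were found for all 156 enzymes, but 50 of them (32.1%) reached 5 CPM in at least 1 class, against 64.9% of all 19937 genes, and 30 (19.2%) reached 50 CPM, against 36.5% of all genes. By family these 50 were 20 of 81 Cyp, 17 of 21 Gst, 4 of 4 Ephx, 3 of 7 Fmo, 2 of 16 Ces, 2 of 13 Sult and 2 of 14 Ugt genes. The highest level fell in fibroblast-like cells for 17 of the 50, in oligodendrocyte-like cells for 14, in pericyte-like cells for 6, in intermediate mural cells for 5, in smooth muscle-like cells for 4, in venous-like and capillary-like cells for 2 each and in arterial-like cells for 0. Fibroblast-like cells thus held the highest level of 34% of these enzymes and oligodendrocyte-like cells of 28%, against 17.5% and 17.2% of the 6359 genes that reached 5 CPM and were kept out of the clustering. For the other groups the shares were 0% against 9.3% in arterial-like, 4% against 9.7% in venous-like, 4% against 7.1% in capillary-like, 8% against 13.3% in smooth muscle-like, 10% against 14.9% in intermediate mural and 12% against 10.9% in pericyte-like cells. The enzymes together took 4127 CPM in fibroblast-like and 5077 CPM in oligodendrocyte-like cells, 1958 to 2232 CPM in the endothelial classes, and 1298 CPM in smooth muscle-like against 2802 CPM in pericyte-like cells.

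The groups of enzymes were spread unevenly over the vessel wall. The Cyp1 to Cyp3 group holds the classical drug- and steroid-oxidising P450s and was taken here without the Cyp2j genes. Its summed levels were 126 CPM in arterial-like, 185 in venous-like, 257 in capillary-like, 813 in fibroblast-like, 11.5 in smooth muscle-like, 37.7 in intermediate mural, 41.3 in pericyte-like and 38.9 in oligodendrocyte-like cells. The Cyp2j genes were summed with the Cyp4 genes as a fatty acid group. That group stood at 358 CPM in oligodendrocyte-like cells and at 69.8 to 174 CPM in the other groups. For the Fmo group they were 60.9 CPM in arterial-like, 202 in venous-like, 103 in capillary-like, 339 in fibroblast-like, 23.6 in smooth muscle-like, 82.1 in intermediate mural, 42.5 in pericyte-like and 6.45 in oligodendrocyte-like cells. The 4 epoxide hydrolases, which open reactive epoxides to diols, summed to 443 CPM in arterial-like, 230.3 in venous-like, 219.7 in capillary-like, 339 in fibroblast-like, 349 in smooth muscle-like, 1249 in intermediate mural, 885 in pericyte-like and 48.7 in oligodendrocyte-like cells, highest in intermediate mural and pericyte-like cells and lowest in oligodendrocyte-like cells. Of the intermediate mural sum, 665 CPM was Ephx3, a leading gene of that sub-cluster when it was singled out. Ephx1 alone was highest in pericyte-like cells. The Gst sum was 1028 CPM in arterial-like, 1244 in venous-like, 1363 in capillary-like, 1719.8 in fibroblast-like, 629.7 in smooth muscle-like, 849 in intermediate mural, 1096 in pericyte-like and 2415 in oligodendrocyte-like cells. The Ugt sum was 1775 CPM in oligodendrocyte-like cells and at most 23.7 CPM in the other groups. The Sult sum was lowest in oligodendrocyte-like cells (1.75 CPM) and highest in fibroblast-like cells (264 CPM). Each sum rested on few genes, as the values of single enzymes show.

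**Figure D1:**
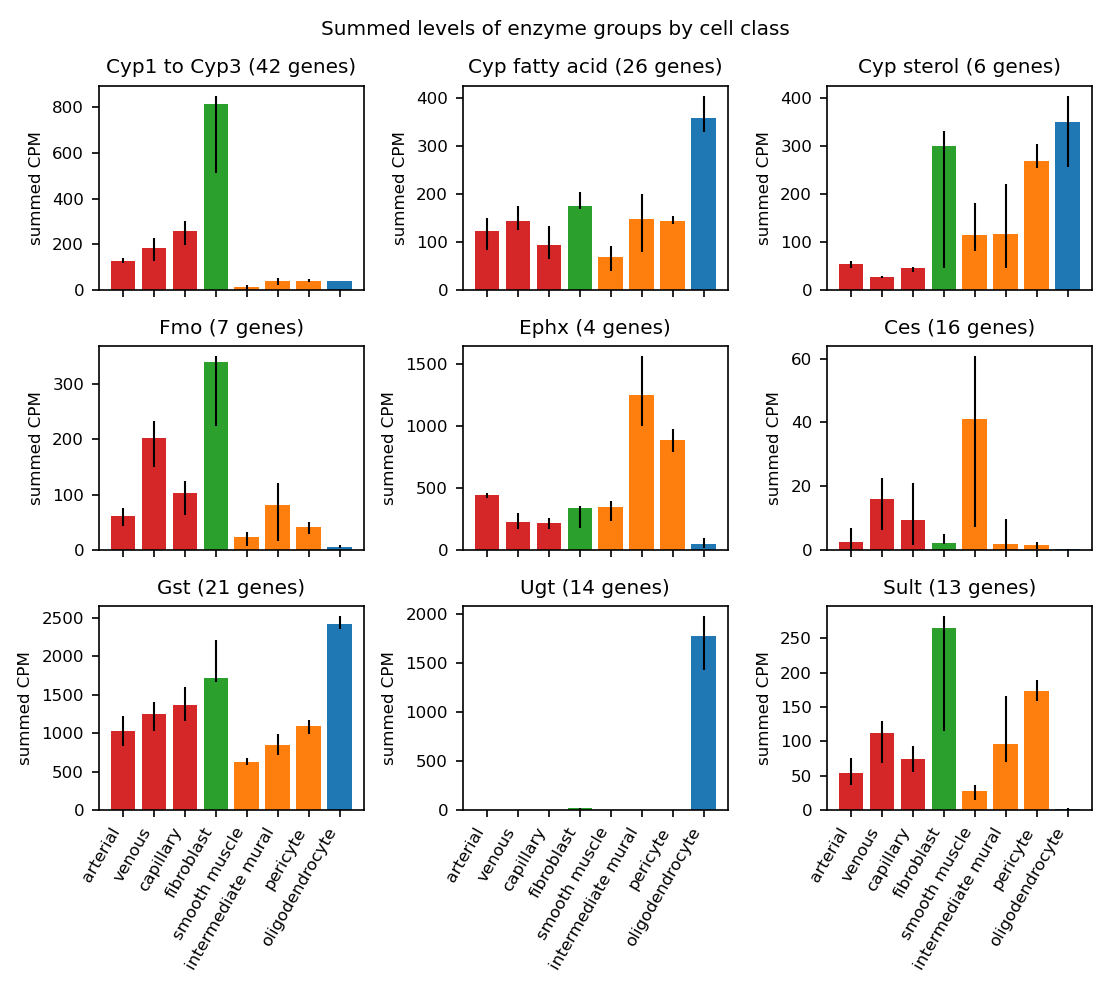
Summed pooled CPM of 9 enzyme groups (bars) in the 8 cell groups, with black lines from the lowest to the highest plate holding at least 10 cells of that group. The Cyp2j genes are summed with the Cyp4 genes in the fatty acid group and not in the Cyp1 to Cyp3 group. The Ugt bar stands in oligodendrocyte-like cells, the Cyp1 to Cyp3 and Fmo bars are highest in fibroblast-like cells, and the Ephx bars are highest in intermediate mural and pericyte-like cells. Ephx3, a leading gene of the intermediate mural sub-cluster, gave 665 CPM of the Ephx bar of that group.

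**Figure D2:**
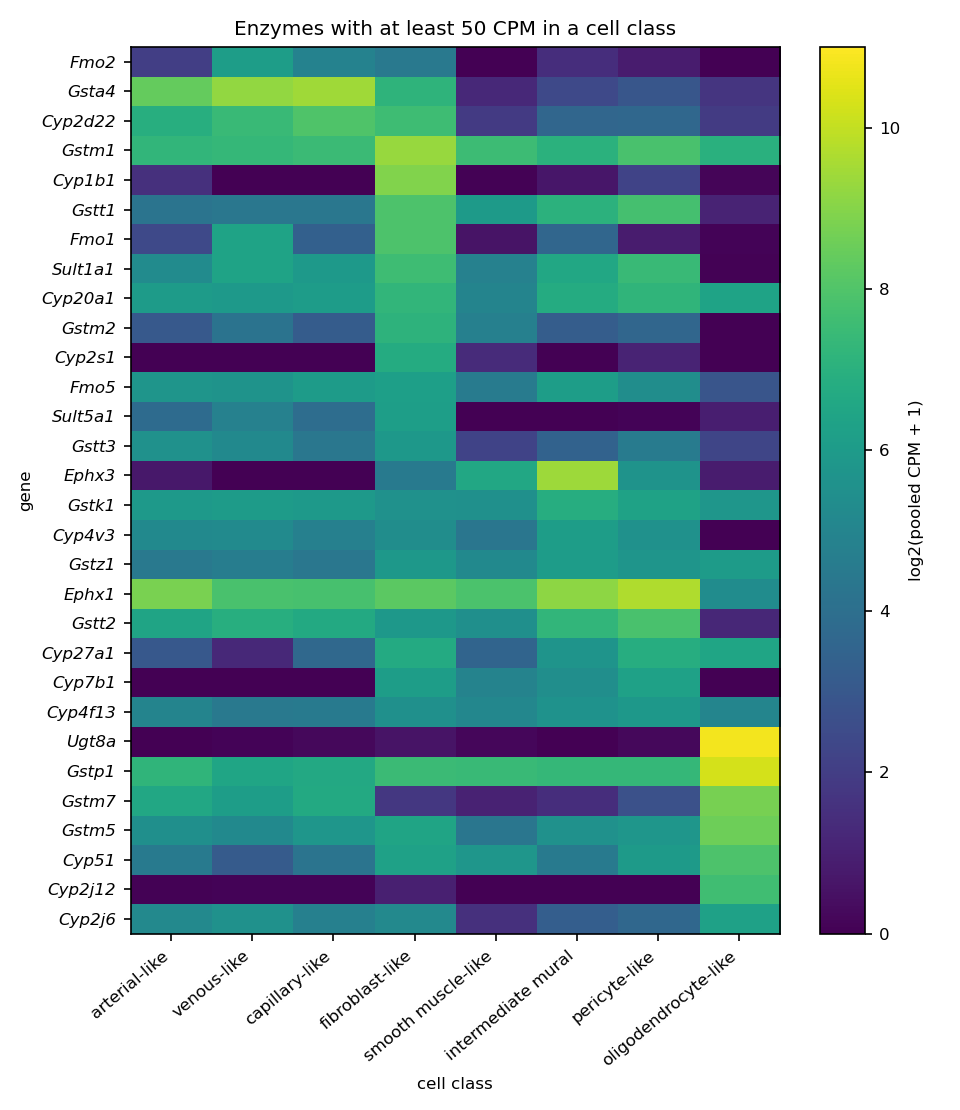
Log2(pooled CPM + 1) of the 30 enzymes with at least 50 CPM in a cell group, one row per gene, ordered by the group with the highest level. Ugt8a and Cyp2j12 are bright in oligodendrocyte-like cells alone, Cyp1b1 and Cyp2s1 in fibroblast-like cells, and Gsta4 and Cyp2d22 in the endothelial classes and fibroblast-like cells.

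Endothelial-like cells differed from pericyte-like cells in the enzymes they held. Gsta4, Cyp2d22, Gstm7, Cyp2j6, Fmo1, Fmo2 and Sult5a1 passed 2-fold on the endothelial side, and Cyp7b1, Ephx3, Cyp27a1, Gstt1, Gstt2, Ephx1 and Sult1a1 passed it on the pericyte side. Of 33 enzymes with at least 5 CPM in either class, 8 were at least 2-fold higher, 12 were at least 2-fold lower and 13 lay within 2-fold. Among the 5417 genes measured in the same way and kept out of the clustering, 16.3% were at least 2-fold higher and 19.2% at least 2-fold lower. The median log2 ratio was -0.45 for the enzymes and -0.10 for those genes. The share of enzymes lower in endothelial-like cells, 12 of 33, was above the share of the other genes, and the share higher, 8 of 33, was above theirs as well.

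Gsta4, on chromosome 9 (chr9:78182774-78209349, plus strand; all gene positions are in mm10 from GENCODE M21), encodes the transferase that conjugates 4-hydroxynonenal, a product of lipid peroxidation. Its level was 332 CPM in arterial-like, 598 in venous-like, 683 in capillary-like, 142 in fibroblast-like, 1.38 in smooth muscle-like, 4.46 in intermediate mural, 6.74 in pericyte-like and 2.29 in oligodendrocyte-like cells. By plate it was 828, 769.7, 638 and 504 CPM in capillary-like cells and 9.85, 5.95, 4.15 and 7.51 CPM in pericyte-like cells, and the lowest endothelial plate value was 206 CPM, in arterial-like cells, so the groups did not overlap. Over all endothelial-like cells the pooled level was 564 CPM, against 6.74 CPM in pericyte-like cells, a log2 ratio of 6.19 with 1 CPM added to each. A read was found in 78.0% of endothelial-like and 3.79% of pericyte-like cells. Of the 1502 CPM of endothelial markers in pericyte-like cells, Esam gave 1323, Flt1 134 and Tek 22.6 CPM. Ly6c1 stood at 8.26, Cldn5 at 6.91, Pecam1 at 4.58, Cdh5 at 2.29 and Kdr at 0.957 CPM. Of pericyte-like cells, 104 of 1055 also carried markers of another class.

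Cyp2d22, a mouse member of the CYP2D family of drug-oxidising P450s, had 118 CPM in arterial-like, 173 in venous-like, 251 in capillary-like, 188 in fibroblast-like, 2.68 in smooth muscle-like, 11.5 in intermediate mural, 11.7 in pericyte-like and 2.72 in oligodendrocyte-like cells. The log2 ratio of endothelial-like over pericyte-like cells was 3.95, and fibroblast-like cells lay within the range of the endothelial classes. Gstm7, a mu-class transferase, had 94.6 CPM in arterial-like, 68.8 in venous-like, 101 in capillary-like, 2.48 in fibroblast-like, 1.06 in smooth muscle-like, 1.68 in intermediate mural, 5.72 in pericyte-like and 424 in oligodendrocyte-like cells. It was highest in oligodendrocyte-like cells and next highest in the endothelial classes, whose log2 ratio over pericyte-like cells was 3.78. Cyp2j6, of the family that makes epoxides from arachidonic acid, had 35.2 CPM in arterial-like, 46.4 in venous-like, 26.7 in capillary-like, 35.1 in fibroblast-like, 1.84 in smooth muscle-like, 8.84 in intermediate mural, 11.8 in pericyte-like and 78.0 in oligodendrocyte-like cells.

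On the pericyte side, Cyp7b1, the oxysterol 7-alpha-hydroxylase of the bile acid and oestrogen-receptor ligand pathways, had under 0.1 CPM in arterial-like, under 0.1 in venous-like, 0 in capillary-like, 69.0 in fibroblast-like, 29.6 in smooth muscle-like, 42.8 in intermediate mural, 78.3 in pericyte-like and 0 in oligodendrocyte-like cells. In the 1336 endothelial-like cells it amounted to 3 reads, against 27486 reads in pericyte-like cells. Cyp27a1, the mitochondrial sterol 27-hydroxylase, had 7.13 CPM in arterial-like, 1.38 in venous-like, 12.0 in capillary-like, 103 in fibroblast-like, 10.6 in smooth muscle-like, 50.1 in intermediate mural, 113 in pericyte-like and 88.3 in oligodendrocyte-like cells, with 129, 103, 123 and 101 CPM on the 4 mural plates and 22.5, 8.67, 8.32 and 7.76 CPM in capillary-like cells on the 4 endothelial plates. Both sterol hydroxylases were higher in pericyte-like and fibroblast-like than in endothelial-like cells. Cyp27a1 was also read in 46.0% of oligodendrocyte-like cells while Cyp7b1 had 0 reads there, which allows up to 0.0347 CPM (3 reads).

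The theta-class transferases Gstt1 and Gstt2, which act on small halogenated and sulfate compounds, lie in one cluster on chromosome 10. Gstt1 (chr10:75783813-75798584, minus strand) had 17.5 CPM in arterial-like, 19.4 in venous-like, 19.4 in capillary-like, 245 in fibroblast-like, 62.5 in smooth muscle-like, 133 in intermediate mural, 214 in pericyte-like and 1.11 in oligodendrocyte-like cells. Gstt2 (chr10:75831114-75837424, minus strand) had 84.1 CPM in arterial-like, 117 in venous-like, 102 in capillary-like, 57.1 in fibroblast-like, 44.1 in smooth muscle-like, 151 in intermediate mural, 231 in pericyte-like and 1.31 in oligodendrocyte-like cells. Their endothelial levels parted: the log2 ratio of endothelial-like over pericyte-like cells was -3.43 for Gstt1 and -1.19 for Gstt2. Gstt3, of the same cluster (chr10:75774115-75781414, minus strand), had 45.9 CPM in arterial-like, 36.0 in venous-like, 19.8 in capillary-like, 56.9 in fibroblast-like, 3.65 in smooth muscle-like, 10.1 in intermediate mural, 23.0 in pericyte-like and 3.99 in oligodendrocyte-like cells, and 12.5% of its 50-base transcript segments also occur in other annotated genes, so its level is uncertain by reads of such copies.

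Ephx1, the microsomal epoxide hydrolase, on chromosome 1 (chr1:180976210-181020904, minus strand), was read in every class. Its level was 443 CPM in arterial-like, 230.0 in venous-like, 219.7 in capillary-like, 299 in fibroblast-like, 234 in smooth muscle-like, 568 in intermediate mural, 832 in pericyte-like and 39.7 in oligodendrocyte-like cells. Pericyte-like cells held 725, 815, 832 and 925 CPM by plate, all above each of the endothelial plates, and 86.7% of them had a read. The log2 ratio of endothelial-like over pericyte-like cells was -1.54. Sult1a1, the phenol sulfotransferase that conjugates simple phenols, had 39.1 CPM in arterial-like, 83.3 in venous-like, 59.5 in capillary-like, 191 in fibroblast-like, 27.2 in smooth muscle-like, 96.0 in intermediate mural, 172 in pericyte-like and under 0.1 in oligodendrocyte-like cells. Oligodendrocyte-like cells, with 5 Sult1a1 reads in all, stood apart from the others.

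Along the endothelial tree, most enzymes lay within 2-fold, but in pooled levels the shares that differed were above those of the other genes. Ephx1 and Gstt3 were higher in arterial-like than in capillary-like cells, and Gsta4, Cyp2d22, Fmo1 and Fmo2 were lower. The direction of Fmo1 differed between plates, since on EC6 it stood at 4.92 CPM in arterial-like and 1.76 CPM in capillary-like cells. Fmo1 and Fmo2 were highest in venous-like cells. The first comparison set arterial-like against capillary-like cells. Of 28 enzymes with at least 5 CPM in either class, 3 were at least 2-fold higher, 4 were at least 2-fold lower and 21 lay within 2-fold. Among the 5006 genes measured in the same way and kept out of the clustering, 6.05% were at least 2-fold higher and 4.06% at least 2-fold lower. The median log2 ratio was -0.05 for the enzymes and 0.01 for those genes. The other higher enzyme was Gsto1 (14.2 CPM in arterial-like and 5.27 CPM in capillary-like cells), a low value whose direction differed between plates with log2 ratios of -2.77 to 2.52. On each of the 4 plates, 0 enzymes were at least 2-fold higher and 1, Fmo2, was at least 2-fold lower, against 2.16% and 1.14% of the other genes.

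Ephx1 held 436, 463, 443 and 418 CPM in arterial-like cells, 214, 232, 299 and 167 CPM in venous-like cells and 218, 168, 260.0 and 231 CPM in capillary-like cells on plates EC3 to EC6. Every arterial value lay above every venous and capillary value, while the venous and capillary values overlapped. The log2 ratio of arterial-like over capillary-like cells was 1.01, with 0.77 to 1.46 on single plates, and the share of cells with a read was 77.0% against 47.7%. With each cell thinned to 100000 reads, the shares were 71.6% and 43.0%. Within arterial-like cells the sub-cluster led by the elastic-fibre genes Fbln5, Eln and Mgp held 549.5 CPM, that led by P2ry2 and Cdh13 535 CPM and that led by Syt15 312 CPM.

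Gsta4 ran the other way, at 450.5, 436, 254 and 206 CPM in arterial-like cells against 828, 769.7, 638 and 504 CPM in capillary-like cells, with 739, 623, 565 and 440.2 CPM in venous-like cells. On every plate the arterial value was the lowest of the 3, and the log2 ratio of arterial-like over capillary-like cells was -1.04 (-1.32 to -0.82 on single plates). The elastic-fibre-led sub-cluster stood at 154 CPM, the arterial sub-clusters led by P2ry2 and by Syt15 at 339 and 429.7 CPM, and the 4 capillary-like sub-clusters at 532 to 840.0 CPM. Cyp2d22 held 105, 117, 128 and 124 CPM in arterial-like cells against 241, 189, 302 and 270.5 CPM in capillary-like cells, a log2 ratio of -1.08 (-1.23 to -0.69). The ends of the ranking also held Gstp1 with a log2 ratio of 0.56 and Sult1a1 with -0.59, both within 2-fold, and Gstt3 with 1.17 (0.56 to 1.45).

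Markers of other cells also differed between the zones. The 7 astrocyte markers summed to 324 CPM in arterial-like, 73.8 CPM in venous-like and 314 CPM in capillary-like cells. Nearly all of it was Gja1, at 307, 61.6 and 301 CPM in the same order, and the defining marker Aqp4 was at 0, 0 and 2.48 CPM. Erythroid markers summed to 70.4 CPM in arterial-like (up to 292 CPM on 1 plate), 1.33 CPM in venous-like and 13.4 CPM in capillary-like cells. The part of these cells in the zone differences was not tested.

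Venous-like cells held the highest endothelial levels of Fmo1 and Fmo2, flavin monooxygenases that oxidise nitrogen and sulfur atoms of drugs and amines. Of 32 enzymes with at least 5 CPM in either class, 6 were at least 2-fold higher, 3 were at least 2-fold lower and 23 lay within 2-fold. Among the 4987 genes measured in the same way and kept out of the clustering, 4.99% were at least 2-fold higher and 3.63% at least 2-fold lower. The median log2 ratio was 0.16 for the enzymes and 0.01 for those genes. Fmo1 and Fmo2 lie next to each other on chromosome 1 (chr1:162829561-162866610, minus strand, and chr1:162874317-162898726, minus strand). Fmo1 had 4.46 CPM in arterial-like, 83.3 in venous-like, 9.38 in capillary-like, 243 in fibroblast-like, 0.492 in smooth muscle-like, 11.3 in intermediate mural, 0.794 in pericyte-like and under 0.1 in oligodendrocyte-like cells. By plate it held 54.8, 113, 99.1 and 54.8 CPM in venous-like cells against 9.96, 16.2, 0.821 and 1.76 CPM in capillary-like cells, so each venous value exceeded each capillary value, with a log2 ratio of 3.02 (2.35 to 5.78 on single plates). It was the 1 enzyme at least 2-fold higher on all 4 plates, while 0 were at least 2-fold lower on all 4, against 1.06% and 0.822% of the other genes.

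Fmo2 had 3.08 CPM in arterial-like, 68.9 in venous-like, 28.1 in capillary-like, 20.6 in fibroblast-like, under 0.1 in smooth muscle-like, 1.73 in intermediate mural, 0.794 in pericyte-like and 0 in oligodendrocyte-like cells. Its plate values were 56.6, 58.0, 79.2 and 85.2 CPM in venous-like, 6.30, 4.54, 0.0331 and 1.55 CPM in arterial-like and 22.4, 48.3, 30.2 and 14.3 CPM in capillary-like cells, highest in venous-like cells on every plate. The log2 ratio was 1.26 for venous-like and -2.84 for arterial-like over capillary-like cells. Within venous-like cells, the sub-cluster led by Vcam1 and Nr2f2 held 139 CPM of Fmo1 and 105 CPM of Fmo2, and the sub-cluster led by F5 held 45.4 and 44.7 CPM. Fibroblast-like cells differed from venous-like cells in the balance of the pair: Fmo1 stood at 243 CPM and Fmo2 at 20.6 CPM. Fmo5, which is known for Baeyer-Villiger oxidation, showed no such zoning, with 52.6 CPM in arterial-like, 49.7 in venous-like, 64.6 in capillary-like, 72.9 in fibroblast-like, 23.1 in smooth muscle-like, 69.1 in intermediate mural, 40.6 in pericyte-like and 6.38 in oligodendrocyte-like cells.

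The remaining 4 enzymes higher in venous-like cells were Gstm2, Gstm4, Cyp2j9 and Cyp2e1. Gstm2 stood at 17.4 CPM in venous-like and 8.12 CPM in capillary-like cells, but on plate EC6 at 9.40 and 11.3 CPM. Gstm4 and Cyp2j9 are named here after their values were seen. Gstm4 stood at 11.3 CPM in venous-like and 5.58 CPM in capillary-like cells, with log2 ratios from -1.27 to 2.94 on single plates. Cyp2j9 stood at 21.1 CPM in venous-like and 4.60 CPM in capillary-like cells. Cyp2e1, the ethanol-oxidising P450, came from a single venous-like cell, which held 100.0% of its reads. Lower in venous-like cells were Cyp27a1 (1.38 CPM in venous-like and 12.0 CPM in capillary-like cells), Gsto1 (1.42 CPM in venous-like and 5.27 CPM in capillary-like cells) and Cyp51 (7.82 CPM in venous-like and 17.5 CPM in capillary-like cells), all 3 under 20 CPM. Gsto1 was higher in venous-like cells on plate EC6 (5.67 against 2.42 CPM), and Cyp51 on plate EC5 (13.8 against 6.86 CPM). The ends of the ranking among enzymes of at least 20 CPM also held Sult5a1, with a log2 ratio of 0.91, and Gstm5, Gstm7 and Cyp2d22, with -0.57, -0.55 and -0.54, all within 2-fold.

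**Figure D3:**
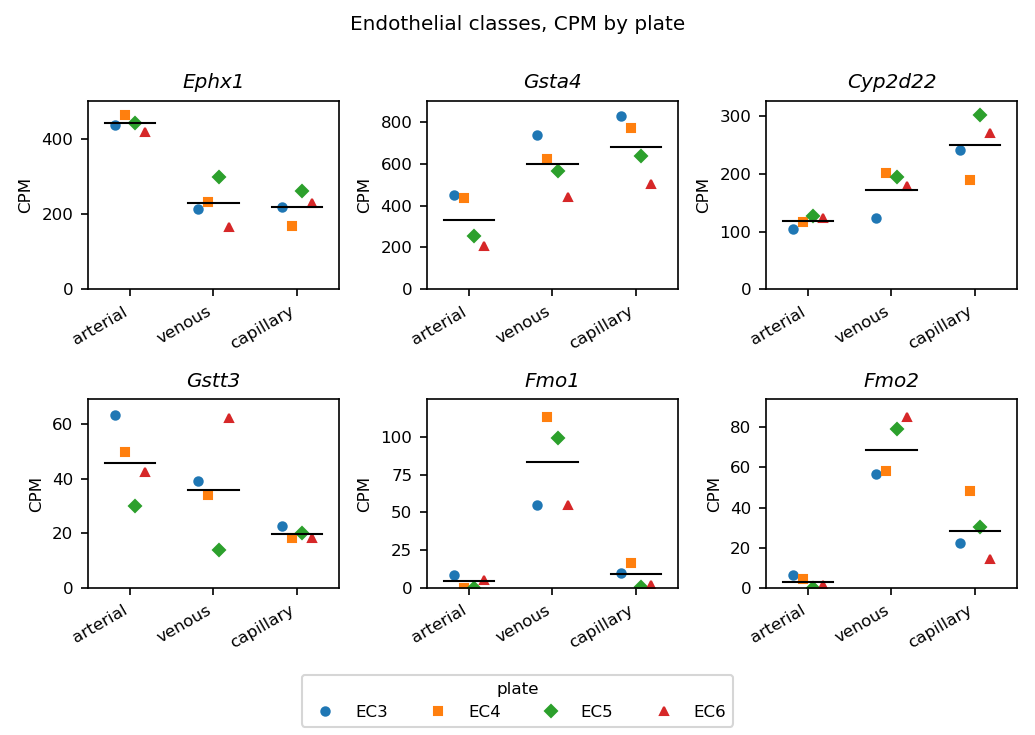
CPM of 6 enzymes in arterial-like, venous-like and capillary-like endothelial cells, with 1 point for each of the plates EC3 to EC6 and a black line at the pooled level. Ephx1 is highest in arterial-like cells on each plate, Gsta4 lowest there, and Fmo1 and Fmo2 are highest in venous-like cells.

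Smooth muscle-like cells held less of most of these enzymes than pericyte-like cells from the same plates. Of 34 enzymes with at least 5 CPM in either class, 5 were at least 2-fold higher, 19 were at least 2-fold lower and 10 lay within 2-fold. Among the 5343 genes measured in the same way and kept out of the clustering, 13.5% were at least 2-fold higher and 19.1% at least 2-fold lower. The median log2 ratio was -1.10 for the enzymes and -0.13 for those genes. Cyp27a1, Sult1a1, Gstt2, Gstt1, Cyp20a1 and Ephx1 were lower in smooth muscle-like cells on each of the 4 plates, and Ces5a was higher on each. In all, 7 enzymes were at least 2-fold lower and 1 was at least 2-fold higher on all 4 plates, against 8.27% and 6.42% of the other genes. Assigning mural cells by marker scores instead of clusters gave 9 lower enzymes, and leaving out plate Mural5 gave 3 higher ones.

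Ephx1 held 341, 274, 199.8 and 147 CPM in smooth muscle-like cells, 536, 593, 671 and 429 CPM in intermediate mural cells and 725, 815, 832 and 925 CPM in pericyte-like cells on plates Mural3 to Mural6. The 3 groups did not overlap, and the log2 ratio of smooth muscle-like over pericyte-like cells was -1.82 (-2.65 to -1.09 on single plates). Gstt2 held 56.5, 59.7, 27.3 and 37.0 CPM in smooth muscle-like cells against 185, 254, 219 and 257 CPM in pericyte-like cells, a log2 ratio of -2.36 (-2.96 to -1.70). Sult1a1 held 36.2, 15.2, 32.6 and 24.9 CPM in smooth muscle-like cells against 166, 174, 157 and 189 CPM in pericyte-like cells, a log2 ratio of -2.62 (-3.43 to -2.17). Cyp27a1 stood at 10.5, 3.10, 28.1 and 0 CPM in smooth muscle-like cells, with a log2 ratio of -3.30 (-6.68 to -2.09).

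Ephx3, on chromosome 17 (chr17:32183770-32189549, minus strand), encodes an epoxide hydrolase active on epoxides of arachidonic and linoleic acid, and was highest in the intermediate mural cells. It had been seen among the leading genes of that sub-cluster when the sub-cluster was singled out, so its level there is a description. Its level was 0.637 CPM in arterial-like, 0 in venous-like, under 0.1 in capillary-like, 21.7 in fibroblast-like, 95.8 in smooth muscle-like, 665 in intermediate mural, 49.0 in pericyte-like and 0.798 in oligodendrocyte-like cells. On plates Mural3 to Mural6 it held 425, 656, 538 and 1134 CPM in intermediate mural cells, 40.3, 100.3, 166 and 66.2 CPM in smooth muscle-like cells and 57.3, 49.8, 45.2 and 45.6 CPM in pericyte-like cells. Each intermediate value exceeded each value of the other mural groups, with 95% counting intervals of 657 to 673, 93.4 to 98.2 and 48.2 to 49.7 CPM for the pooled levels. A read was found in 65.5% of intermediate mural, 18.2% of smooth muscle-like and 12.6% of pericyte-like cells, and the best-supplied intermediate cell held 6.20% of the reads. Among pericyte-like cells the sub-cluster led by Coch and Agtr1a held 187 CPM, against 10.2 to 83.6 CPM in the other 6. The log2 ratio of smooth muscle-like over pericyte-like cells, 0.95, was within 2-fold and ranged from -0.50 to 1.85 on single plates.

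The Coch-led sub-cluster of 74 pericyte-like cells also held the most Cyp7b1 (203 CPM, against 41.1 to 95.8 CPM in the other pericyte-like sub-clusters) and Sult1a1 (341 CPM, against 103 to 172 CPM). Its Ephx1 level, 459 CPM, was the lowest of the 7. Acta2 stood at 406 CPM in it and at no more than 25.0 CPM in the others.

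The enzymes higher in smooth muscle-like cells, 5 of 34, were mostly low. Their share was close to the 13.5% of the other genes and is no result about the set. Ces5a, a carboxylesterase, held 7.26, 41.4, 19.6 and 54.5 CPM in smooth muscle-like cells, was read in 11.8% of them, and had 3 reads in all pericyte-like cells. Its log2 ratio was 5.01 (3.05 to 5.77 on single plates), and the best-supplied cell held 14.8% of its reads. Gstm2 held 27.1 CPM in smooth muscle-like and 11.3 CPM in pericyte-like cells, a log2 ratio of 1.19 (0.37 to 1.73). Ephx2, the soluble epoxide hydrolase that inactivates the vasodilator epoxides of arachidonic acid, had 0 CPM in arterial-like, 0 in venous-like, 0 in capillary-like, 18.1 in fibroblast-like, 19.3 in smooth muscle-like, 16.4 in intermediate mural, 4.83 in pericyte-like and 0 in oligodendrocyte-like cells, with 16.1, 22.1, 15.1 and 23.7 CPM by plate in smooth muscle-like cells. The 1336 endothelial-like cells held 0 Ephx2 reads. Ces2g (8.87 CPM in smooth muscle-like and 0.458 CPM in pericyte-like cells) with Gstm6 (9.31 CPM in smooth muscle-like and 2.96 CPM in pericyte-like cells) made up the rest, and their direction differed between plates.

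**Figure D4:**
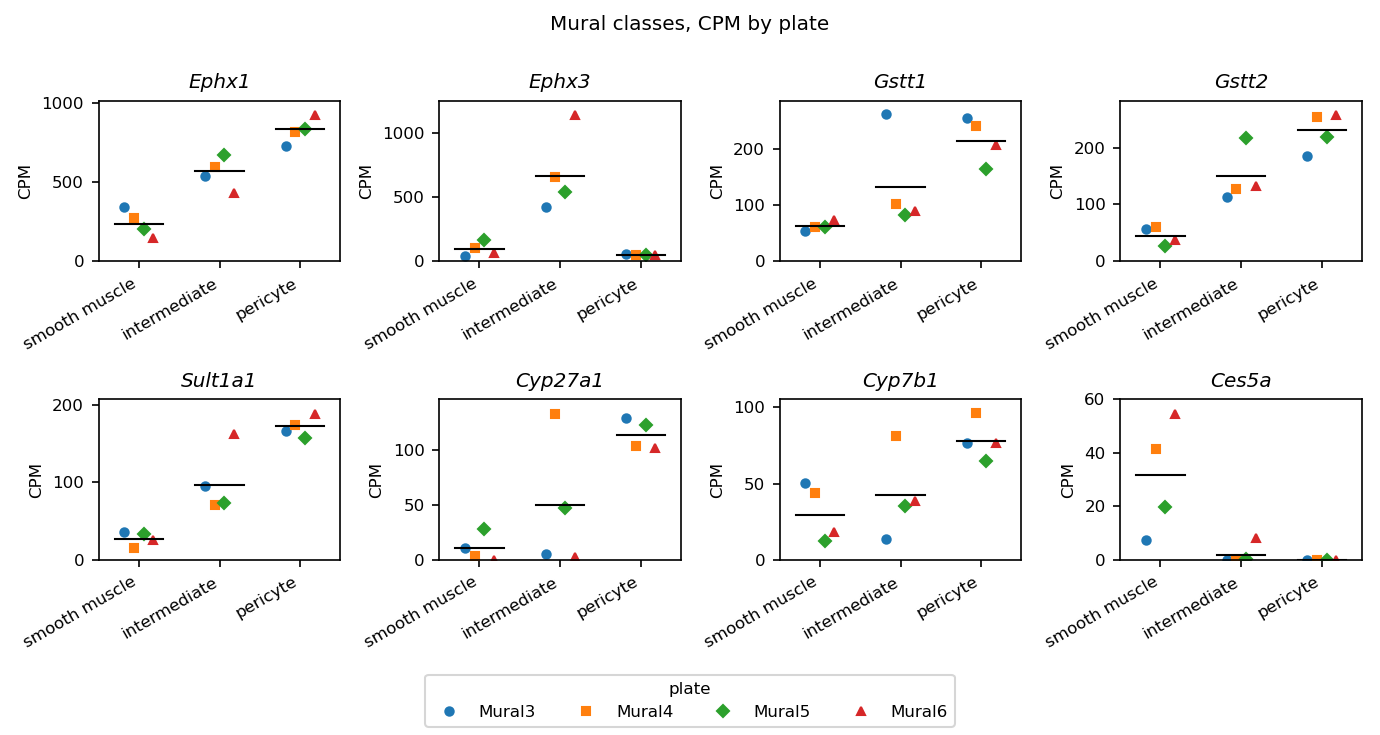
CPM of 8 enzymes in smooth muscle-like, intermediate mural and pericyte-like cells, with 1 point for each of the plates Mural3 to Mural6 and a black line at the pooled level. Ephx1 and Gstt2 are lowest in smooth muscle-like and highest in pericyte-like cells, Ephx3 is highest in intermediate mural cells on each plate, and Ces5a is highest in smooth muscle-like cells.

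A further 5 enzymes were read in every mural and endothelial group at 18.8 CPM or more. Cyp20a1, a P450 of unknown substrate, had 64.4 CPM in arterial-like, 59.9 in venous-like, 66.2 in capillary-like, 150.5 in fibroblast-like, 30.4 in smooth muscle-like, 108 in intermediate mural, 148 in pericyte-like and 83.3 in oligodendrocyte-like cells. Cyp4v3 and Cyp4f13, of the family that hydroxylates fatty acids at their end carbon, followed. Cyp4v3 had 36.2 CPM in arterial-like, 38.0 in venous-like, 26.3 in capillary-like, 40.6 in fibroblast-like, 18.8 in smooth muscle-like, 69.0 in intermediate mural, 46.4 in pericyte-like and under 0.1 in oligodendrocyte-like cells, and was lowest in oligodendrocyte-like cells, where it had 1 read. Cyp4f13 had 30.1 CPM in arterial-like, 20.8 in venous-like, 21.7 in capillary-like, 44.3 in fibroblast-like, 33.5 in smooth muscle-like, 47.1 in intermediate mural, 57.2 in pericyte-like and 31.1 in oligodendrocyte-like cells. The kappa-class transferase Gstk1, a mitochondrial and peroxisomal enzyme, had 60.8 CPM in arterial-like, 64.9 in venous-like, 59.2 in capillary-like, 46.5 in fibroblast-like, 45.5 in smooth muscle-like, 115 in intermediate mural, 80.5 in pericyte-like and 53.6 in oligodendrocyte-like cells. Gstz1, the maleylacetoacetate isomerase of tyrosine breakdown, had 20.7 CPM in arterial-like, 23.9 in venous-like, 19.7 in capillary-like, 57.8 in fibroblast-like, 36.5 in smooth muscle-like, 65.7 in intermediate mural, 52.1 in pericyte-like and 64.6 in oligodendrocyte-like cells, and 12.2% of its exon bases overlap the neighbouring gene Pomt2.

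Fibroblast-like and oligodendrocyte-like cells were sorted from the same plates of the Pdgfra-H2BGFP line and held different sets of enzymes. Cyp1b1, Fmo1, Sult1a1, Gstm2, Gstt1, Cyp2s1 and Cyp7b1 were at least 2-fold higher in fibroblast-like cells, and Ugt8a, Gstp1, Gstm7, Gstm5, Cyp51 and Cyp2j12 at least 2-fold lower. Of 47 enzymes with at least 5 CPM in either class, 22 were at least 2-fold higher, 12 were at least 2-fold lower and 13 lay within 2-fold. Among the 5777 genes measured in the same way and kept out of the clustering, 35.2% were at least 2-fold higher and 18.2% at least 2-fold lower. The median log2 ratio was 0.55 for the enzymes and 0.35 for those genes. On both plates, 19 enzymes were at least 2-fold higher and 9 at least 2-fold lower, against 23.3% and 13.1% of the other genes. The 5 CPM floor was not applied to single plates, so some of these calls rest on very low values on plate Pdgfra2. In fibroblast-like against oligodendrocyte-like cells there, Fmo2 stood at 0.679 against 0 CPM, Ephx2 at 0.340 against 0 CPM and Sult5a1 at 1.70 against 0.590 CPM. Ephx4, counted as lower, stood at 0 against 0.978 CPM.

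Cyp1b1, a P450 that oxidises aromatic hydrocarbons and oestradiol and is a textbook target of the aryl hydrocarbon receptor, lies on chromosome 17 (chr17:79701537-79715061, minus strand). It had 1.89 CPM in arterial-like, 0 in venous-like, 0 in capillary-like, 481 in fibroblast-like, under 0.1 in smooth muscle-like, 0.568 in intermediate mural, 3.64 in pericyte-like and 0.104 in oligodendrocyte-like cells. The fibroblast-like cells held 512 and 234 CPM on plates Pdgfra1 and Pdgfra2, against 0.248 and 0.0184 CPM in oligodendrocyte-like cells. A read was found in 79.5% of fibroblast-like cells, and 75.0% after thinning to 100000 reads, against 5.33% and 2.00% of oligodendrocyte-like cells. The receptor gene itself, Ahr, was low in fibroblast-like cells, at 0.705 CPM, and its partner Arnt stood at 100.4 CPM.

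Fibroblast-like cells held Fmo1 at 258 and 124 CPM on the 2 plates, against 0.186 and 0 CPM in oligodendrocyte-like cells. Sult1a1 stood at 201 and 107 CPM in fibroblast-like cells, against 0.155 and 0 CPM in oligodendrocyte-like cells. The log2 ratios of Cyp1b1, Fmo1 and Sult1a1, 8.77, 7.83 and 7.50, were the highest of the set, and rest on few reads in oligodendrocyte-like cells. Gstm1 and Gstm2, mu-class transferases encoded in one cluster on chromosome 3 (Gstm2 at chr3:107981702-107986453, minus strand, and Gstm1 at chr3:108012255-108017973, minus strand), differed in breadth. Gstm1 had 148 CPM in arterial-like, 157 in venous-like, 179 in capillary-like, 631 in fibroblast-like, 187 in smooth muscle-like, 131 in intermediate mural, 227 in pericyte-like and 125 in oligodendrocyte-like cells. Gstm2 had 7.48 CPM in arterial-like, 17.4 in venous-like, 8.12 in capillary-like, 136 in fibroblast-like, 27.1 in smooth muscle-like, 8.35 in intermediate mural, 11.3 in pericyte-like and 0 in oligodendrocyte-like cells, which put it at least 3929-fold higher in fibroblast-like than in oligodendrocyte-like cells, counting 3 reads for the 0 found. Of the 50-base segments of Gstm1, 18.9% also occur in other annotated genes, mostly in the pseudogene Gstm2-ps1.

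Cyp2s1, a P450 found mainly outside the liver, had 0 CPM in arterial-like, 0 in venous-like, under 0.1 in capillary-like, 107 in fibroblast-like, 1.52 in smooth muscle-like, 0 in intermediate mural, 1.14 in pericyte-like and under 0.1 in oligodendrocyte-like cells. It differed between the fibroblast plates, with 119 and 1.53 CPM, and 1 cell held 28.0% of the fibroblast reads. Sult5a1, a sulfotransferase, had 13.3 CPM in arterial-like, 27.2 in venous-like, 14.0 in capillary-like, 70.2 in fibroblast-like, 0 in smooth muscle-like, 0 in intermediate mural, under 0.1 in pericyte-like and 0.879 in oligodendrocyte-like cells, with 78.4 and 1.70 CPM on the fibroblast plates. For both, the reads lay on plate Pdgfra1, which held 59 of the 88 fibroblast-like cells and most of the reads of that class. Gsta4, Cyp2d22, Gstt1 and Cyp7b1, given above, were also higher in fibroblast-like cells on both plates.

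Ugt8a, the ceramide galactosyltransferase that makes the galactolipids of myelin, lies on chromosome 3 (chr3:125865271-125938619, minus strand). It had under 0.1 CPM in arterial-like, under 0.1 in venous-like, 0.174 in capillary-like, 0.499 in fibroblast-like, 0.127 in smooth muscle-like, 0 in intermediate mural, 0.191 in pericyte-like and 1774 in oligodendrocyte-like cells. By plate it held 0.308 and 2.21 CPM in fibroblast-like cells and 1427 and 1981 CPM in oligodendrocyte-like cells. The log2 ratio of -10.21 was the lowest of the 47 enzymes, and 99.3% of oligodendrocyte-like cells had a read. A read was also found in 29.5% of fibroblast-like cells, and in 0.19% of pericyte-like cells.

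The transferases Gstp1, Gstm5 and Gstm7 were high in oligodendrocyte-like cells together. Gstp1, the pi-class transferase, on chromosome 19 (chr19:4035407-4037985, minus strand), had 148 CPM in arterial-like, 88.2 in venous-like, 99.7 in capillary-like, 180.2 in fibroblast-like, 173 in smooth muscle-like, 158 in intermediate mural, 158 in pericyte-like and 1247 in oligodendrocyte-like cells. It held 178 and 206 CPM in fibroblast-like and 1599 and 1038 CPM in oligodendrocyte-like cells by plate, and 33.7% of its 50-base segments occur in Gstp2, so the split of reads between the pair is uncertain. Gstp2 as counted reached 5.59 CPM in oligodendrocyte-like cells. Gstm5 had 43.1 CPM in arterial-like, 36.0 in venous-like, 54.0 in capillary-like, 85.5 in fibroblast-like, 19.2 in smooth muscle-like, 46.2 in intermediate mural, 53.8 in pericyte-like and 382 in oligodendrocyte-like cells, and 13.9% of its exon bases overlap the gene 4933431E20Rik. Gstm7 held 2.64 and 1.19 CPM in fibroblast-like and 338 and 475 CPM in oligodendrocyte-like cells, a log2 ratio of -6.93. Gstm7 and Gstm5 lie in the same chromosome 3 cluster as Gstm1 and Gstm2, but Gstm1 and Gstm2 were higher in fibroblast-like cells on both plates.

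Cyp51, the sterol 14-alpha-demethylase of cholesterol synthesis, had 21.8 CPM in arterial-like, 7.82 in venous-like, 17.5 in capillary-like, 77.8 in fibroblast-like, 53.9 in smooth muscle-like, 22.0 in intermediate mural, 62.1 in pericyte-like and 240.3 in oligodendrocyte-like cells. Its fibroblast level came from plate Pdgfra1 (87.0 and 0.17 CPM by plate), against 146 and 296 CPM in oligodendrocyte-like cells. Cyp2j12, a P450 of the arachidonic acid epoxygenase family, had under 0.1 CPM in arterial-like, under 0.1 in venous-like, under 0.1 in capillary-like, 0.946 in fibroblast-like, 0 in smooth muscle-like, 0 in intermediate mural, under 0.1 in pericyte-like and 195 in oligodendrocyte-like cells and held 219 and 180.4 CPM on the 2 plates in oligodendrocyte-like cells. Cyp2j6, of the same family, was by contrast read in all groups.

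**Figure D5:**
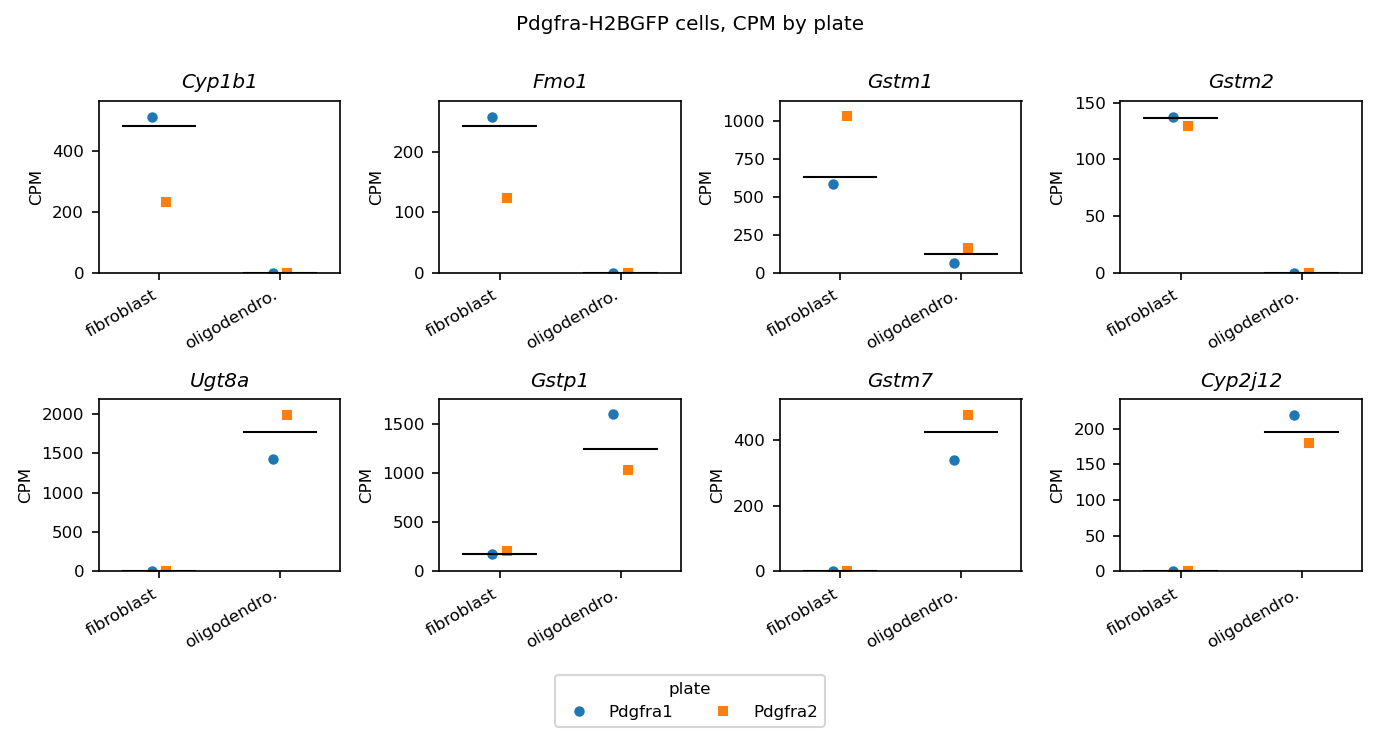
CPM of 8 enzymes in fibroblast-like and oligodendrocyte-like cells of the Pdgfra-H2BGFP line, with 1 point for each of the plates Pdgfra1 and Pdgfra2 and a black line at the pooled level. Cyp1b1, Fmo1, Gstm1 and Gstm2 are higher in fibroblast-like cells and Ugt8a, Gstp1, Gstm7 and Cyp2j12 in oligodendrocyte-like cells on both plates.

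The promoter windows of Cyp1b1, the enzyme with the highest fibroblast over oligodendrocyte ratio, and of Ugt8a, Gstm5, Gstm7 and Gstp1, which were high in oligodendrocyte-like cells together, are shown so that the letters of 2 response elements known from this field can be seen. Windows run from 250 bases before to 50 bases after a RefSeq transcript start in GRCm38.p6, 5′ to 3′ on the gene's strand. Capitals mark the core of the xenobiotic response element bound by the aryl hydrocarbon receptor, GCGTG, and the core of the antioxidant response element bound by Nfe2l2, TGACNNNGC, on either strand. The windows lie at chr17:79715012-79715311 (minus strand), chr3:125938603-125938902 (minus strand), chr3:107895604-107895903 (plus strand), chr3:107931768-107932067 (minus strand) and chr19:4037863-4038162 (minus strand).
Cyp1b1: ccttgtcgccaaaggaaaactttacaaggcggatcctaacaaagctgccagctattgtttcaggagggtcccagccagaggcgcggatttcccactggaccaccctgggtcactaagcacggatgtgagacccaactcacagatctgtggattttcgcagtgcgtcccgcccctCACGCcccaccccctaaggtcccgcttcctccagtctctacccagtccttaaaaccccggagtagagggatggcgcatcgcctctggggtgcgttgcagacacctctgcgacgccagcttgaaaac
Ugt8a: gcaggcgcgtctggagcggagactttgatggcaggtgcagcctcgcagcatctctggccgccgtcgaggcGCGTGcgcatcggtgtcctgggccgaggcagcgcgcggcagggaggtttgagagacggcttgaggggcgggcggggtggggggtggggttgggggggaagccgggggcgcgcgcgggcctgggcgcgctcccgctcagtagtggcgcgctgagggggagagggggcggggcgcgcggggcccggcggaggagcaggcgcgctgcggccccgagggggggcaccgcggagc
Gstm5: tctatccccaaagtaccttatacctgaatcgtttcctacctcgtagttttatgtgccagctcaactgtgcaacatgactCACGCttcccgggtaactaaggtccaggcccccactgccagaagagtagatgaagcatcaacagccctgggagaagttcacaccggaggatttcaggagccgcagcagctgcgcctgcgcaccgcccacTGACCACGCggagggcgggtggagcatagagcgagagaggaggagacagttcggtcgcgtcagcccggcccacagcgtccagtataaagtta
Gstm7: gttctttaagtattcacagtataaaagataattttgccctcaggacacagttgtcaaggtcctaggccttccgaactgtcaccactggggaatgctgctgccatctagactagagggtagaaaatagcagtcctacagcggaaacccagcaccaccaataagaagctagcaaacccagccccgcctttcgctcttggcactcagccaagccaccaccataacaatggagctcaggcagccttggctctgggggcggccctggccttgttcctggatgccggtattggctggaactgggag
Gstp1: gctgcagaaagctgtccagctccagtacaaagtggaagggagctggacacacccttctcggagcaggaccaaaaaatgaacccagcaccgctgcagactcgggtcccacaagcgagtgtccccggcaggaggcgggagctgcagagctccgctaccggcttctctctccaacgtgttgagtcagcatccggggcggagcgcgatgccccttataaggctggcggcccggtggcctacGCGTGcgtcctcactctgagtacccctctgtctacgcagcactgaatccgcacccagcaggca
The window of Gstm5 held 2 xenobiotic cores, 1 of them overlapping its antioxidant core, and those of Cyp1b1, Ugt8a and Gstp1 held 1 xenobiotic core each. The window shown for Gstm7 held 0 cores, and its second window, from a start nearby, held 1 antioxidant core. Of the 30 enzymes with at least 50 CPM in a class, 25 had windows, 30 in all. A xenobiotic core was found in 10 of the 30 windows (33.3%) and an antioxidant core in 3 (10%), against 32.4% and 12.4% of all 32851 windows in the table. A match is a run of letters and not a shown binding site.

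Against pericyte-like cells, the other perivascular population of the set, fibroblast-like cells held higher levels of many enzymes. Of 40 enzymes with at least 5 CPM in either class, 18 were at least 2-fold higher, 5 were at least 2-fold lower and 17 lay within 2-fold. Among the 5653 genes measured in the same way and kept out of the clustering, 19.7% were at least 2-fold higher and 16.1% at least 2-fold lower. The median log2 ratio was 0.73 for the enzymes and -0.09 for those genes. Fmo1, Cyp1b1 and Sult5a1 stood at the upper end, with log2 ratios of 7.09, 6.70 and 6.03. Among the others, Gsta4, Cyp2d22, Gstm2 and Gstm1 had 4.21, 3.90, 3.48 and 1.47. Ugt1a6a, a phenol-conjugating transferase, was read in 17.0% of fibroblast-like cells at 19.0 CPM and had 0 reads in pericyte-like cells, which made it at least 2226-fold higher, though 52.1% of its 50-base segments are shared with other genes, mostly of the same Ugt1a locus.

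The 5 enzymes lower in fibroblast-like than in pericyte-like cells were Gstt2, Ephx1, Ephx3, Cyp2u1 and Gstm7, of which Cyp2u1 was named after its values were seen. Their log2 ratios were -2.00, -1.47, -1.14, -1.02 and -0.95. Ephx3 stood at 0.603 CPM in the fibroblast-like cells without markers of another class, against 46.4 CPM in such pericyte-like cells, and the Cyp1b1 level was 521 CPM against 3.80 CPM. In the pooled levels, Gstt1, Cyp7b1, Cyp27a1, Sult1a1 and Cyp20a1 each lay within 2-fold between the populations, but the fibroblast plates differed. On plates Pdgfra1 and Pdgfra2, Gstt1 held 221 and 469 CPM, against 164 to 255 CPM on the pericyte plates. Cyp7b1 held 75.0 and 20.2 CPM against 65.1 to 96.1, and Cyp27a1 113 and 25.5 CPM against 101 to 129. Sult1a1 held 201 and 107 CPM against 157 to 189, and Cyp20a1 161 and 65.0 CPM against 117 to 176. Leaving out plate Pdgfra1, which held 59 of the 88 fibroblast-like cells, gave 10 lower enzymes.

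Levels of different enzymes can be set against each other only per length, as reads per kilobase of exon in each 1000000 reads (RPKM). On that scale the leading enzyme was Gsta4 in the endothelial classes, at 263, 473 and 539 RPKM in arterial-like, venous-like and capillary-like cells, with Ephx1 at 227, 118 and 113 RPKM in the same order. It was Gstm1 in fibroblast-like cells (429 RPKM), Gstm1 in smooth muscle-like cells (127 RPKM, with Ephx1 at 120.0 RPKM), Ephx1 in intermediate mural and pericyte-like cells (291 and 426 RPKM) and Gstp1 in oligodendrocyte-like cells (806 RPKM, with Ugt8a at 391 RPKM). The leading enzyme was thus either a glutathione transferase or Ephx1 in each group, and Ephx3 was second in intermediate mural cells, at 266 RPKM.

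The 20 enzymes with 5 to 50 CPM as their highest level ranged from 5.59 to 47.0 CPM and comprised 9 Cyp, 6 Gst, 2 Ces, 2 Ephx and 1 Ugt gene. Cyp39a1, the 7-alpha-hydroxylase of 24-hydroxycholesterol, was the highest Cyp of them, at 47.0 CPM in fibroblast-like cells, and Cyp2e1 reached 24.6 CPM there from a single cell. Gsto1, an omega-class transferase, reached 46.2 CPM in oligodendrocyte-like cells and Gstm6 23.1 CPM. Ephx4 reached 8.24 CPM there, with 39.0% of the reads in 1 cell. The other 106 enzymes stayed below 5 CPM in every group, 90 of them below 1 CPM, and at these levels their differences between groups were not described. The 3 genes of steroid hormone synthesis, Cyp11a1, Cyp17a1 and Cyp19a1, summed to no more than 0.535 CPM in any group.

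The enzymes work beside electron donors, cofactor makers, regulators and other oxidoreductases, of which a list of 46 was followed. Between endothelial-like and pericyte-like cells, 12 of 40 such genes were at least 2-fold higher and 8 at least 2-fold lower, against 16.3% and 19.2% of the genes kept out of the clustering. In the same order, higher then lower, the other comparisons gave the following. For arterial-like over capillary-like cells, 3 and 0 of 39 passed, against 6.05% and 4.06%. For venous-like over capillary-like cells, 2 and 2 of 38 passed, against 4.99% and 3.63%. For smooth muscle-like over pericyte-like cells, 3 and 9 of 37 passed, against 13.5% and 19.1%. For fibroblast-like over oligodendrocyte-like cells, 19 and 6 of 40 passed, against 35.2% and 18.2%. For fibroblast-like over pericyte-like cells, 9 and 2 of 40 passed, against 19.7% and 16.1%. Shares close to those of the other genes, as for the venous-like cells, are no result about the list. Por, the reductase that passes electrons to every microsomal P450, had 107 CPM in arterial-like, 155 in venous-like, 131 in capillary-like, 296 in fibroblast-like, 23.6 in smooth muscle-like, 20.0 in intermediate mural, 129 in pericyte-like and 86.3 in oligodendrocyte-like cells. It was highest in fibroblast-like cells and lowest in intermediate mural and smooth muscle-like cells. Maoa, the monoamine oxidase, had 568 CPM in arterial-like, 565 in venous-like, 493 in capillary-like, 35.4 in fibroblast-like, 13.9 in smooth muscle-like, 86.9 in intermediate mural, 53.5 in pericyte-like and 66.1 in oligodendrocyte-like cells, highest in the endothelial classes.

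Papss1, which makes the sulfate donor of the sulfotransferases, had 111 CPM in arterial-like, 75.1 in venous-like, 93.0 in capillary-like, 106 in fibroblast-like, 66.0 in smooth muscle-like, 142 in intermediate mural, 126 in pericyte-like and 413 in oligodendrocyte-like cells, so that its highest level fell in the group with the lowest Sult sum. Ugp2, which makes UDP-glucose, had 42.9 CPM in arterial-like, 82.3 in venous-like, 65.8 in capillary-like, 98.2 in fibroblast-like, 149 in smooth muscle-like, 203 in intermediate mural, 281 in pericyte-like and 133 in oligodendrocyte-like cells. Aldh2, the mitochondrial aldehyde dehydrogenase, had 306 CPM in arterial-like, 222 in venous-like, 331 in capillary-like, 453 in fibroblast-like, 200.0 in smooth muscle-like, 435 in intermediate mural, 386 in pericyte-like and 20.6 in oligodendrocyte-like cells, and was lowest in oligodendrocyte-like cells. Of the other genes at the top of the list, Akr1a1 ranged from 519 to 1241 CPM over the 8 groups, Cyb5r3 from 49.7 to 637 CPM, Pon2 from 89.8 to 424 CPM, Adh5 from 112 to 322 CPM, and the cytochrome b5 genes Cyb5a and Cyb5b from 167 to 303 and from 92.4 to 293 CPM.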

How the data were processed

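Smart-seq2 libraries of 3186 single brain cells from 3 reporter lines were used. Reads were aligned with STAR 2.4.2a to mm10, per the submitters' processing notes. Not given in the sources used here were the gene counter and its annotation. The authors deposited whole-number gene counts per cell, the basis of every value here. The authors also deposited a scaled table of whole numbers with 499421 to 501418 per cell, treated as a score and used only as an alternative scaling.

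All cells had at least 500 genes, and no doublet caller was run because cells were sorted 1 to a well. Cells were clustered with scanpy 1.11.5 and leidenalg 0.10.2 (2000 variable genes, 30 principal components, 15 neighbours, resolution 1). The genes offered were a random 50% of genes and all cell type markers. The enzymes of the set, the other pathway genes and the reporter genes were left out. Mural and endothelial clusters were clustered again (1000 variable genes, 10 components). Genes kept out of clustering served as the background. Clusters were named from fixed markers, and 274 cells in other clusters were left out. The enzymes and gene lists were chosen with earlier results of these data known. The rules for naming clusters, the sub-clustering settings (several were tried) and the choice of the intermediate mural sub-cluster were set after the clusters were seen.

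Levels are counts summed per class and scaled to CPM. No label names an animal, which is why no test was made and plates are the only split. The counting of differences was tried on simulated pooled counts with counting error only and with changes larger than 2-fold. Such data cannot show how the rule behaves at 2-fold or with differences between cells or plates. Enzymes with at least 50 CPM in a class were named with all levels. Up to 3 at each end of a comparison were named, with at least 20 CPM and a read in 10% of cells of the higher class. Up to 2 per family were named between 5 and 50 CPM, and of the other pathway genes the 12 with the highest level, of which 1 is not reported here, besides Ahr and Arnt. Shared 50-base segments and exon lengths come from GENCODE M21, promoter windows from RefSeq. Alternatives changed the weight per cell, scaling, fold, floor, mixed wells (markers of another class at 10% of its median or more), clustering, class assignment, depth, plates and pseudocount. Python 3.11.15, numpy 2.4.6, pandas 2.3.3, scipy 1.17.1 and matplotlib 3.10.9 were used.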

Additional observations from a re-analysis of the deposited data

Results flagged for a closer look

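These levels came from sub-clusters outside the 8 groups and exceeded the highest level in any of them. Gstm4 reached 52.7 CPM in a microglia-like cluster of 27 cells, where 1 cell held 82.1% of its reads, against at most 18.6 CPM in the 8 groups. In a cluster of 21 cells that carried oligodendrocyte progenitor genes (Neu4 at 815 CPM) and astrocyte genes (Slc1a2 at 1171 CPM), Cyp2j6 reached 239 CPM, against at most 78.0 CPM in the 8 groups. Cyp2j9 reached 120 CPM there, read in 8 of the 21 cells, against at most 21.1 CPM. Ephx4 reached 72.7 CPM there, with 53.2% of the reads in 1 cell, against at most 8.24 CPM. Fmo2 reached 201 CPM in an endothelial sub-cluster of 76 cells that met no zone rule and was led by pericyte genes, read in 21 of them, against at most 68.9 CPM in the 8 groups.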

How the results depend on the processing

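Of 192 recomputed counts of enzymes, 166 stayed within 1.5 times the reported count and 26 did not, and of 516 recomputed log2 ratios 466 moved by no more than their spread between shared plates (1.5-fold where no plate was shared), 50 moved further and 0 of those at least 2-fold apart changed direction. At 3-fold, arterial-like over capillary-like cells had 0 higher and 1 lower enzymes, venous-like over capillary-like cells 3 higher, endothelial-like over pericyte-like cells 6 lower and fibroblast-like over pericyte-like cells 1 lower. With a floor of 1 CPM, arterial-like over capillary-like cells had 5 higher and 9 lower, venous-like over capillary-like cells 5 lower, endothelial-like over pericyte-like cells 20 lower and fibroblast-like over pericyte-like cells 29 higher. With a floor of 20 CPM, smooth muscle-like over pericyte-like cells had 2 higher and 10 lower, venous-like over capillary-like cells 3 higher and 0 lower, and fibroblast-like over pericyte-like cells 3 lower. Required on each shared plate, arterial-like over capillary-like cells had 0 higher and 1 lower, venous-like over capillary-like cells 1 higher and 0 lower, and smooth muscle-like over pericyte-like cells 1 higher and 7 lower. This alternative gave no value for endothelial-like or fibroblast-like over pericyte-like cells, since no plate held 10 cells of both. With classes by marker scores, smooth muscle-like over pericyte-like cells had 9 lower and venous-like over capillary-like cells 1 lower. With cells thinned to 100000 reads, fibroblast-like over pericyte-like cells had 3 lower. With each plate left out in turn, enzymes higher in smooth muscle-like than in pericyte-like cells numbered 3 (without Mural5) to 6, and those lower in fibroblast-like than in pericyte-like cells 4 to 10 (without Pdgfra1). Left-out plates moved no other count by more than 1.5 times. Where fewer enzymes passed a stricter fold, floor or plate rule, the rule itself lowers the count; for the other alternatives the cause was not tested. Alternatives chosen after seeing the data, venous-like cells of the Vcam1-led sub-cluster alone (9 higher, 2 lower) and pericyte-like cells without the Coch-led sub-cluster, stayed within 1.5 times. No paired analysis was possible because each reporter line is 1 sample and the well or plate numbers of different lines name different plates. Depth limits the low enzymes: 0 reads allows 0.00854 CPM in pericyte-like cells and 0.0516 CPM in fibroblast-like cells.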
